A study of Homo sapiens with 8 samples.

Results

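The photoreceptor programme genes are 10 genes that rod and cone photoreceptors use to build and run the light response: *CRX*, *NRL*, *GNAT1*, *GNB3*, *PDE6B*, *PDE6H*, *SAG*, *RCVRN*, *AIPL1* and *IMPG2*. They were taken by name and are 10 of the 19970 protein-coding genes annotated on chromosomes 1 to 22 and X. H3K27Ac, an acetylation of histone H3 that marks active enhancers and promoters, was measured by ChIP-seq in 4 human medulloblastoma cell lines. MB002, D425 and HD-MB03 are lines of the Group 3 subtype (G3-MB), and UW228 is labelled as a line of the SHH subtype and used by the study as its non-G3 line. Each line gave 1 H3K27Ac library and 1 input library, without replicates and with unknown depth, so differences between lines carry no error and none was tested. In an exact permutation test, 3 lines against 1 could not go below p = 0.25.

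MB002 and HD-MB03 grew in Tumor Stem Media, a medium with growth factors and no serum, whereas D425 and UW228 grew in DMEM with serum. Of 8 SHH marker genes, 7 had a called enhancer region in UW228, against 6, 4 and 5 in MB002, D425 and HD-MB03, and *ATOH1* had none in any line. Over all protein-coding genes, a region was called for 61.7% in UW228 and for 70.7%, 72.8% and 58.1% in the G3-MB lines. None of the 8 had a super-enhancer in UW228, where the share of all genes was 4.95%, while 3 (37.5%, against 3.09%) had one in HD-MB03. Their summed signal was also higher in HD-MB03, at 145536 against 84684. The SHH label of UW228 was not settled by these markers. Medium differed within the G3-MB lines, and the subtype comparison rests on a single UW228 culture. The UW228 table came from another run of the enhancer-calling program than the G3-MB tables, so that run, the line and the subtype cannot be told apart.

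The unit of measurement was the region, an enhancer that the authors built by joining nearby H3K27Ac peaks with the ROSE program. The tables held 26072 regions for MB002, 26317 for D425, 15286 for HD-MB03 and 20875 for UW228. The authors split the regions of each line by signal into super-enhancers (SEs, the top group) and typical enhancers (TEs), which gave 363, 431, 302 and 753 SEs in the same order. A region was given to a gene when it overlapped the gene body or lay within 50 kb of the transcription start site (TSS, the start of the canonical transcript), in GRCh38 coordinates. Signal was the H3K27Ac value minus the input value of a region, floored at 0, where each value is a read density normalized to the mapped reads of its library times the region length in bp. A mean signal per bp divides by region length, which includes the gaps between joined peaks, so it is not the signal within peaks. Rank 1 was the highest signal of a line. Relative input density was the input per bp of a region divided by the median over all regions of its line, so that 1 is the usual level. Peaks flanking promoters were to be left out by the authors, which the tables show only in part. Between 4.46% and 6.75% of the regions of a line overlapped a protein-coding TSS, and 109, 116, 140 and 91 regions of a single peak lay wholly within 2.5 kb of one. A TSS outside every region therefore cannot be read as a promoter without acetylation.

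Photoreceptors are the light-sensing neurons of the retina. In them the homeodomain factor CRX and the leucine zipper factor NRL switch on genes of the phototransduction cascade. In that cascade light-activated opsin acts through transducin on a cyclic GMP phosphodiesterase, and arrestin helps to shut the response off. Cells of G3-MB, a tumour of the cerebellum, are known for transcribing part of this retinal programme outside the eye.

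Promoter sequences were looked up because the TSSs of *CRX*, *PDE6H*, *SAG* and *IMPG2* lay inside called regions of at least 1 G3-MB line. A region includes the gaps between its joined peaks, so a TSS inside it need not lie under a peak. They are the 250 bases before each TSS in the RefSeq promoter table (GRCh38.p14), written 5′ to 3′ on the strand of the gene. Capitals mark matches, on either strand, to 3 motifs. These are TAATCC, the core bound by the homeodomains of CRX and OTX2 (GGATTA on the other strand), TGCTGA, a core bound by NRL and its relatives (TCAGCA on the other strand), and CAGATG, an E-box bound by NEUROD1 (CATCTG on the other strand). The windows are chr19:47821687-47821936 (+) for *CRX*, chr12:14972792-14973041 (+) for *PDE6H*, chr2:233307566-233307815 (+) for *SAG* and chr3:101320576-101320825 (-) for *IMPG2*.
CRX: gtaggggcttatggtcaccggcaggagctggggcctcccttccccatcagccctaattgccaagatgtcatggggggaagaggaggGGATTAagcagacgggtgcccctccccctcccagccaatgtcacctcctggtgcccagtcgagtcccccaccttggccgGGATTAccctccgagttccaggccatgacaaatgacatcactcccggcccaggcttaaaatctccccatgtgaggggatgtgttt
PDE6H: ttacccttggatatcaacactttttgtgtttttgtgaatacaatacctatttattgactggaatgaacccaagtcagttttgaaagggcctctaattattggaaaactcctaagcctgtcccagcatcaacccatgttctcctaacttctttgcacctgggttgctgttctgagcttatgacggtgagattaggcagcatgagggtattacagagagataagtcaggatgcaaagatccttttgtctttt
SAG: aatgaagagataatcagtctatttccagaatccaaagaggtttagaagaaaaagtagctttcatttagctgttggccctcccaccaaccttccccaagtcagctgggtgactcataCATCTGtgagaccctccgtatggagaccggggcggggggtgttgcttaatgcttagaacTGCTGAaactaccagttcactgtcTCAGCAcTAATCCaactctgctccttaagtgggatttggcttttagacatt
IMPG2: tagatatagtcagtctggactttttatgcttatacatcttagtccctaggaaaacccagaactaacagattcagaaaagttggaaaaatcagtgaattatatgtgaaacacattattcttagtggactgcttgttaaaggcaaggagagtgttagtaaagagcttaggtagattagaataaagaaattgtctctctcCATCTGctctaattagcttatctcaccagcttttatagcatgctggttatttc
The *CRX* window held 2 matches to TAATCC. The *SAG* window held 4 matches, with 1 to TAATCC, 2 to TGCTGA and 1 to CAGATG, and *IMPG2* held 1 match to CAGATG. None of the 3 motifs occurred in the *PDE6H* window, and no matches overlapped.

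The table had 9 entries for 7 of the 10 genes, and none for *GNB3*, *RCVRN* and *AIPL1*. Of the 9 entries, 2 held TAATCC, 3 held TGCTGA and 4 held CAGATG. Among all 35116 promoters of the table, 5.62% held TAATCC, 14.0% held TGCTGA and 12.2% held CAGATG. A match describes letters and was not tested as a binding site.

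**Figure D1:**
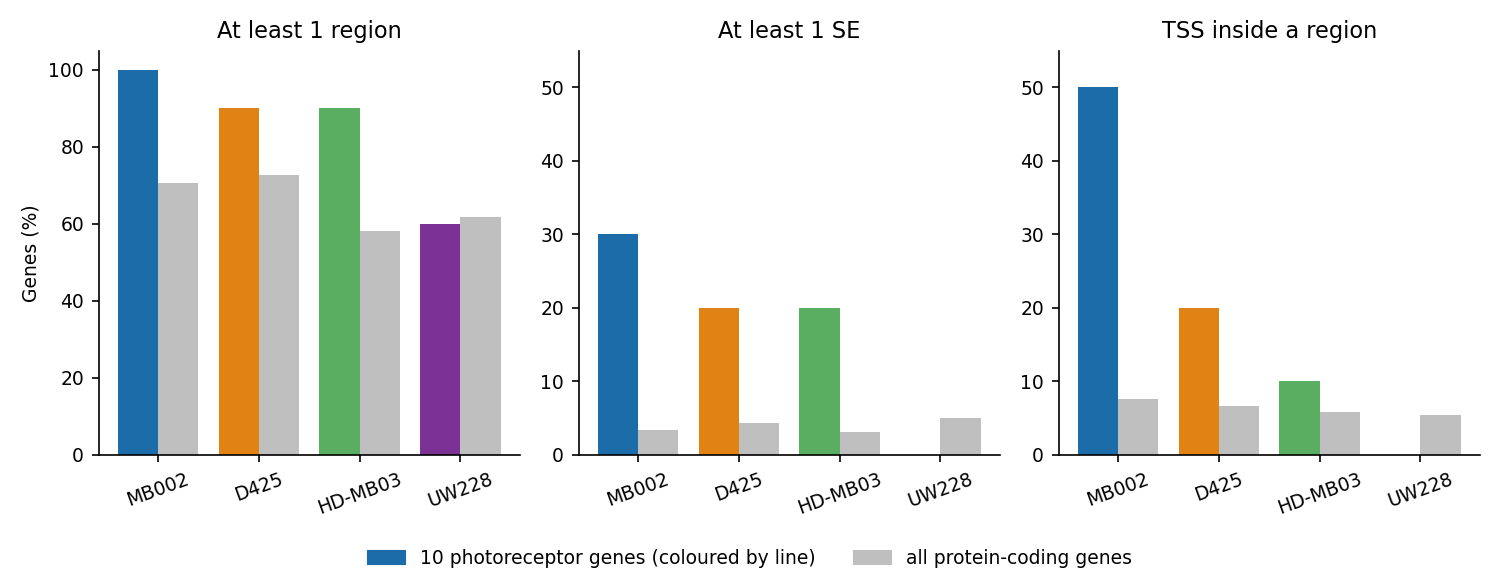
Share of the 10 photoreceptor genes (coloured bars) and of all 19970 protein-coding genes (grey bars) with at least 1 region, with at least 1 SE and with the TSS inside a region, in percent, for each line. The coloured bars for SEs and for TSSs inside a region are above the grey ones in the 3 G3-MB lines and are at 0 in UW228. For 10 genes, 0 is close to the grey shares of UW228, and the 1 TSS of HD-MB03 is close to its grey share.

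All 10 genes had a called region in MB002, and 9 had one in D425, against 9 in HD-MB03 and 6 in UW228. Over all protein-coding genes, 70.7% had a region in MB002 and 72.8% in D425, against 58.1% in HD-MB03 and 61.7% in UW228. Having a region was thus common, and the UW228 count of 6 of 10 was close to the background share. *PDE6B* lacked a region in D425 and *PDE6H* in HD-MB03. In UW228, *CRX*, *NRL*, *PDE6B* and *RCVRN* had none, and by overlap with the gene body alone only 1 of the 10, *IMPG2*, kept a region there.

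SEs were less common. An SE lay at 3 of the 10 genes in MB002 (*CRX*, *GNAT1* and *GNB3*) and at 2 in D425 (*CRX* and *GNAT1*). HD-MB03 had an SE at 2 genes (*GNAT1* and *IMPG2*) and UW228 at 0. The shares over all protein-coding genes were 3.33%, 4.32%, 3.09% and 4.95%. Thus 4 of the 10 genes had an SE in some G3-MB line, *GNAT1* alone had one in all 3, and UW228 had none at these genes, which for 10 genes is close to its share of 4.95%. With SEs set by mean signal per bp, MB002 kept *GNAT1* and *GNB3*, *GNB3* was the only 1 of the 10 in D425 and in UW228, and HD-MB03 had 0. With regions near any protein-coding TSS left out, D425 kept *GNAT1*, and MB002 and HD-MB03 had 0. With a window of 25 kb *GNAT1* had an SE in HD-MB03 alone. With gene body overlap alone or the closest TSS only it had one in no line. After division by relative input density UW228 had an SE at *GNAT1* too.

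The TSS lay inside a region for 5 genes in MB002 (*CRX*, *GNB3*, *PDE6H*, *SAG* and *IMPG2*) and for 2 in D425 (*CRX* and *IMPG2*). HD-MB03 had 1 such gene (*IMPG2*) and UW228 had 0. The same held for 7.66% of protein-coding genes in MB002 and 6.66% in D425, against 5.87% in HD-MB03 and 5.49% in UW228. For 10 genes, the counts of 1 in HD-MB03 and 0 in UW228 are close to these shares. By the canonical start, *IMPG2* alone had its TSS inside a region of every G3-MB line. With any protein-coding transcript start as TSS, the counts were 7, 3, 3 and 0, and *NRL* also had a start inside a region of every G3-MB line. The shares above are for the canonical start. None was computed over all genes for any start, so these counts have no background.

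The 10 genes had 28 regions in MB002 and 23 in D425, against 25 in HD-MB03 and 11 in UW228, and no region belonged to more than 1 of them. These covered 337347, 311273, 216643 and 53659 bp, and their summed signal was 419020 in MB002 and 233090 in D425, against 199396 in HD-MB03 and 39537 in UW228. The mean signal per bp was 1.24, 0.749, 0.920 and 0.737, against 0.596, 0.508, 0.582 and 0.702 over all regions of the same lines. Summed signal was therefore lowest in UW228, where the covered length was also shortest, while the mean per bp of UW228 was close to that of D425.

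Of the 87 regions in all, 38 touched the gene body, 8 of them with the TSS inside, and 49 lay outside it. The median length of a region of these genes was 4050 bp in MB002 and 3474 bp in D425, against 1964 bp in HD-MB03 and 451 bp in UW228. Over all regions of the lines the medians were 1584, 1286, 1368 and 2263 bp. The UW228 regions at photoreceptor genes were thus short in a line whose regions were otherwise the longest.

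Input differed little at these genes in the G3-MB lines. The median relative input density was 0.992 in MB002 and 1.05 in D425, close to the 0.968 of HD-MB03, but 0.350 in UW228. Single regions ranged from 0.0518 to 1.60 in MB002 and 0.428 to 2.25 in D425, against 0.495 to 1.30 in HD-MB03 and 0 to 1.96 in UW228. Only 2 regions passed a relative input density of 2, both short TEs of D425, so no SE of these genes had raised input of that size. Copy number itself was not tested.

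**Figure D2:**
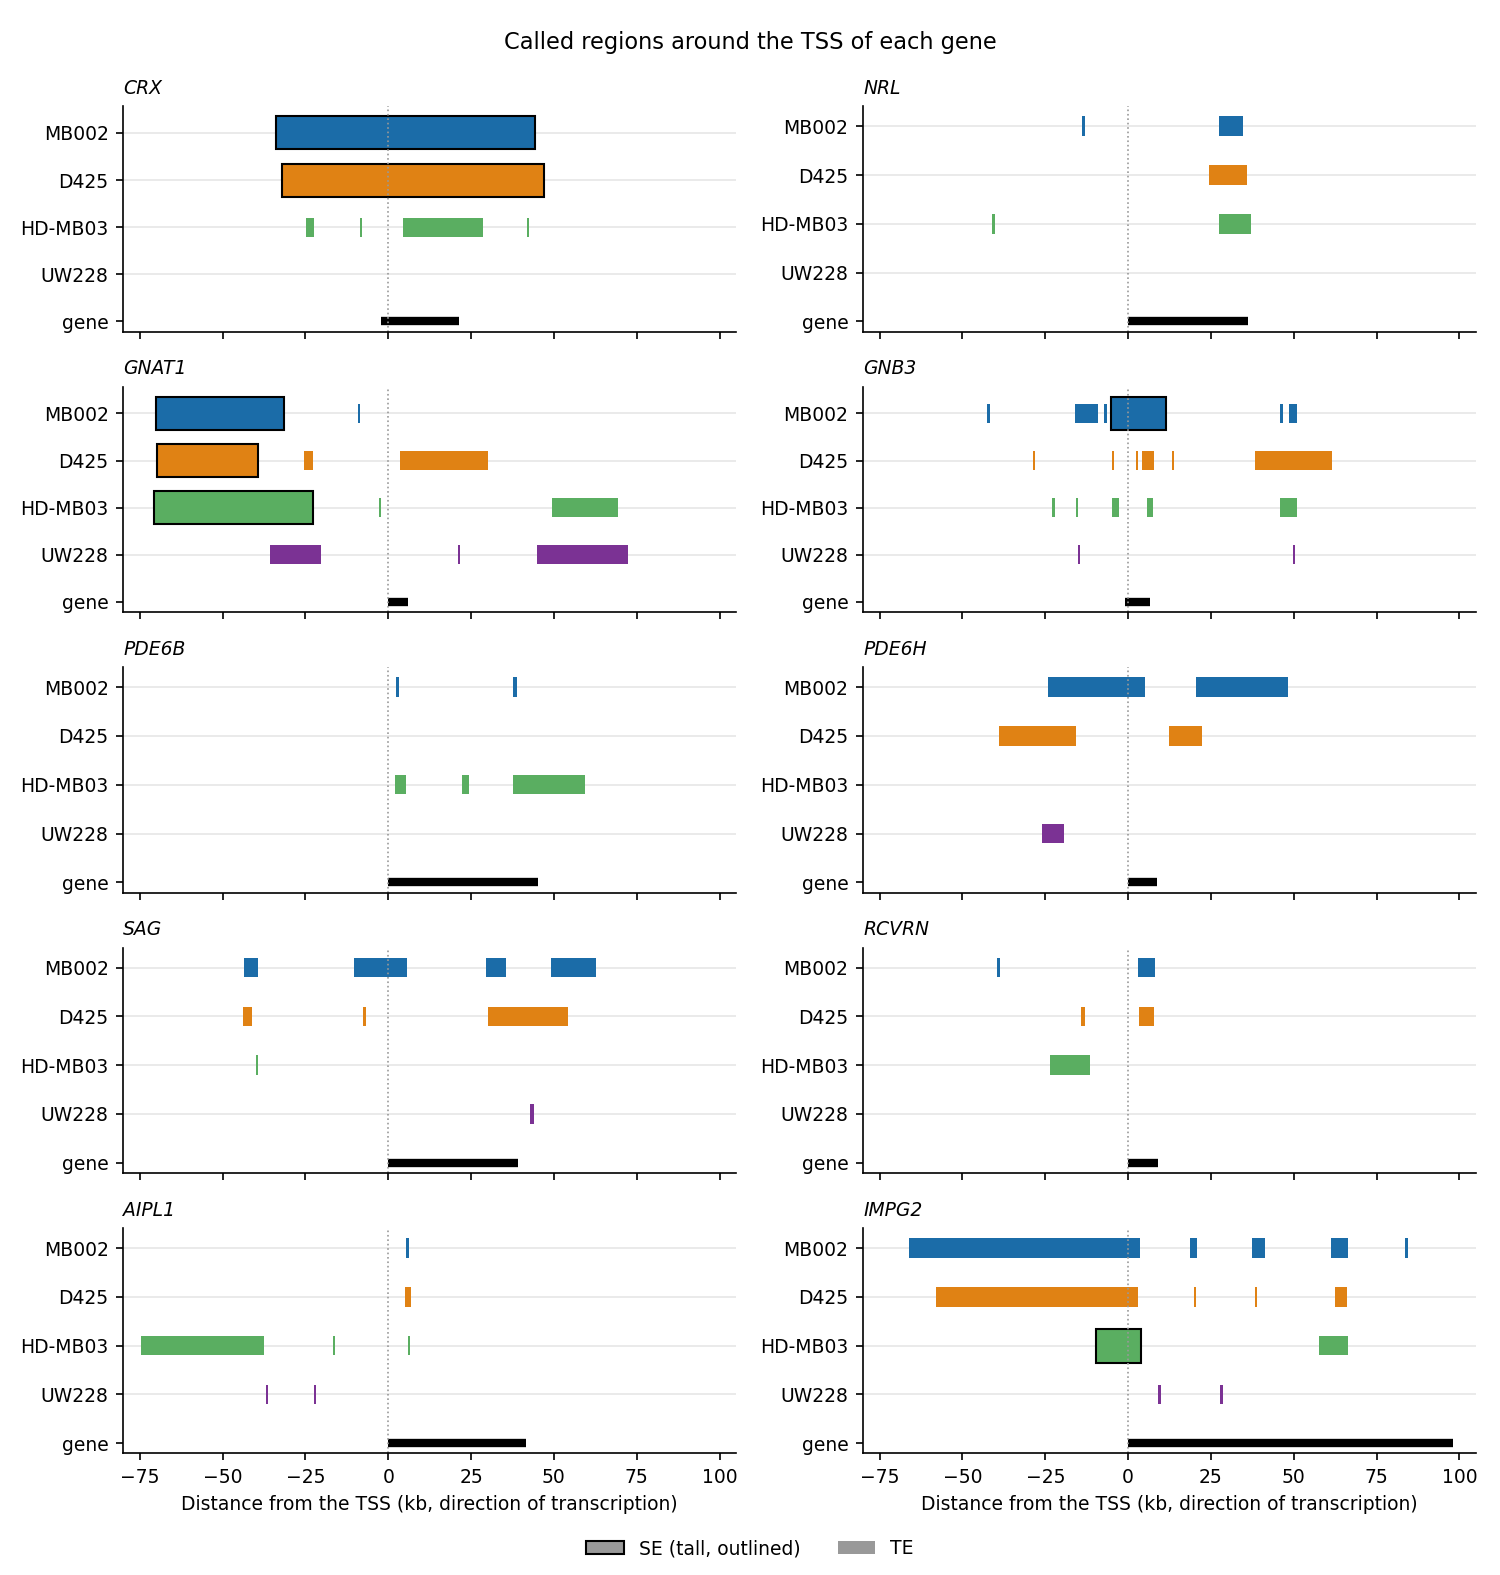
Called regions (bars) around the TSS of each of the 10 genes in each line, with distance from the TSS in kb in the direction of transcription and the gene body as a black bar. Tall outlined bars are SEs and low bars are TEs, and regions shorter than 0.7 kb are drawn 0.7 kb wide so that they can be seen.

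*CRX* (chromosome 19, 47819779 to 47843330, + strand) encodes the homeodomain factor that photoreceptor precursors need to mature. Its regions had a summed signal of 66842 in MB002 and 55984 in D425, against 12652 in HD-MB03, and UW228 had no called region. The gene ran through a single SE in MB002 and in D425, of 78095 and 78984 bp. HD-MB03 had 4 TEs of 27711 bp together, of which only that of rank 1425 overlapped the gene body. Signal was thus high and alike in MB002 and D425, lower in HD-MB03, and uncalled in UW228.

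The *CRX* SE reached from 33.8 kb upstream to 44.3 kb downstream of the TSS in MB002 and from 32.1 kb upstream to 46.9 kb downstream in D425. The 2 SEs shared 76430 bp, which is 97.9% of the MB002 and 96.8% of the D425 length. They were joined from 20 and 15 peaks, and they also held the TSSs of the neighbouring homeobox genes *TPRX1* and *TPRX2*. Both lines therefore had nearly the same domain, with a mean signal of 0.856 per bp in MB002 and 0.709 per bp in D425. Ranked by mean signal per bp, it stood at 5122 in MB002 and 7594 in D425 and was no SE in either line, and with regions near any protein-coding TSS left out, *CRX* kept no region in these lines.

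In HD-MB03 the *CRX* regions had 7 peaks and a mean signal of 0.457 per bp. All of their 27711 bp lay within the MB002 and D425 SEs, and covered 35.5% and 35.1% of these. The best HD-MB03 region, at rank 1425, ran from 4.54 to 28.7 kb downstream of the TSS and did not hold the TSS. HD-MB03 thus had pieces of the domain that MB002 and D425 had in full. The relative input density of the best region was 0.888 in MB002 and 1.15 in D425, and that of HD-MB03 was 0.902.

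*NRL* (chromosome 14, 24078662 to 24115010, - strand) encodes the leucine zipper factor that sets rod fate. Its summed signal was 7633 in MB002 and 19046 in D425. HD-MB03 had 15566, and UW228 had no called region. The best region ranked 2973, 747 and 696, all TEs, with relative input densities of 1.5, 1.62 and 0.865. *NRL* was thus strongest in the pair of lines other than MB002, in contrast to *CRX*, and its region in MB002 and D425 lay on input above the median.

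None of the *NRL* regions held the canonical TSS at position 24114949. The best ones overlapped the gene body, 27.4 to 34.7 kb downstream of it in MB002, 24.4 to 35.9 kb in D425 and 27.6 to 37.0 kb in HD-MB03, where the region ran past the end of the gene, and 7169 bp were common to all 3. That shared stretch holds the starts of the shorter protein-coding transcripts NRL-203 (24084625), NRL-205 (24081986) and NRL-201 (24081928). The called regions at *NRL* in the G3-MB lines therefore covered internal starts of the gene and not its canonical one. The 250 bases before NRL-203, chr14:24084626-24084875 on the - strand, held 1 match to CAGATG. Because 8 protein-coding genes have these regions within reach, and the closest TSS to their centres was that of *PCK2* in MB002 and D425 and of *CPNE6* in HD-MB03, the signal is not that of *NRL* alone.

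*GNAT1* (chromosome 3, 50191610 to 50197696, + strand) encodes the alpha subunit of rod transducin. It had the highest summed signal of the 10 genes in every line, at 133318 in MB002 and 93234 in D425, then 94974 in HD-MB03 and 28872 in UW228. The covered length was 38924, 59514, 68443 and 43200 bp, and the mean signal was 3.43, 1.57, 1.39 and 0.668 per bp. Sum and mean both put the 3 G3-MB lines above UW228, and of the genes with a region in UW228 *GNAT1* is the one where the ratio of median covered length in G3-MB to that in UW228 was closest to 1. The direction turned with other settings: the log2 ratio of the sums, 1.72, became -0.20 after division by relative input density and -0.75 with a window of 25 kb, and *GNAT1* was then not higher in each G3-MB line.

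The best *GNAT1* region was an SE of rank 18 in MB002, of rank 30 in D425 and of rank 9 in HD-MB03, and a TE of rank 1162 in UW228. It lay 70.2 to 31.5 kb upstream of the TSS in MB002, 69.7 to 39.4 kb in D425 and 70.7 to 22.8 kb in HD-MB03, whereas the UW228 region lay 35.8 to 20.2 kb upstream. Their relative input densities were 1.18, 1.44, 1.04 and 0.350. A stretch of 30356 bp was common to the 3 G3-MB lines, and the SE never touched the gene itself.

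The centre of the SE was 14.6 kb from the TSS of *SEMA3F* in MB002, 18.2 kb in D425 and 10.4 kb in HD-MB03, but 50.9, 54.5 and 46.7 kb from that of *GNAT1*. *SEMA3F*, which encodes a secreted guidance protein, had its TSS inside the SE in MB002 and HD-MB03. With a window of 25 kb around the TSS the best *GNAT1* region fell to rank 25401 in MB002 and 1983 in D425, so the high *GNAT1* ranks in these lines rest on a distant region that is nearer to another gene. Which gene the SE acts on was not tested.

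*GNB3* (chromosome 12, 6839954 to 6847393, + strand) encodes the beta subunit of cone transducin. Summed over its regions, signal reached 106812 in MB002 and 24492 in D425, with 5234 in HD-MB03 and 982 in UW228. The regions covered 27212, 28194, 9978 and 715 bp, at a mean signal of 3.93, 0.869, 0.525 and 1.37 per bp. *GNB3* thus fell in steps from MB002 to UW228 by sum, while UW228 had a higher mean per bp than D425 and HD-MB03 over its very short length.

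In MB002 *GNB3* lay in an SE of rank 45 made of 1 peak of 16576 bp, from 5.03 kb upstream to 11.5 kb downstream of the TSS, with a signal of 83389, or 5.03 per bp, and a relative input density of 1.17. This SE also held the TSSs of *CDCA3* and *USP5*. In D425 the stronger of 2 regions in the gene body was a TE of rank 1599 with 3770 bp and a signal of 11257, or 2.99 per bp. The best *GNB3* regions of D425 (rank 1427), HD-MB03 (4477) and UW228 (13630) lay farther off, with their centres 49.9, 48.4 and 49.9 kb from the TSS and nearest to the TSS of *LRRC23*. By signal, an SE over *GNB3* itself was therefore found in MB002 alone, but by mean signal per bp the D425 region in the gene body ranked 188 and counted as an SE too. Relative input density at the best region was 0.947, 0.613 and 1.96 in those 3 lines.

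**Figure D3:**
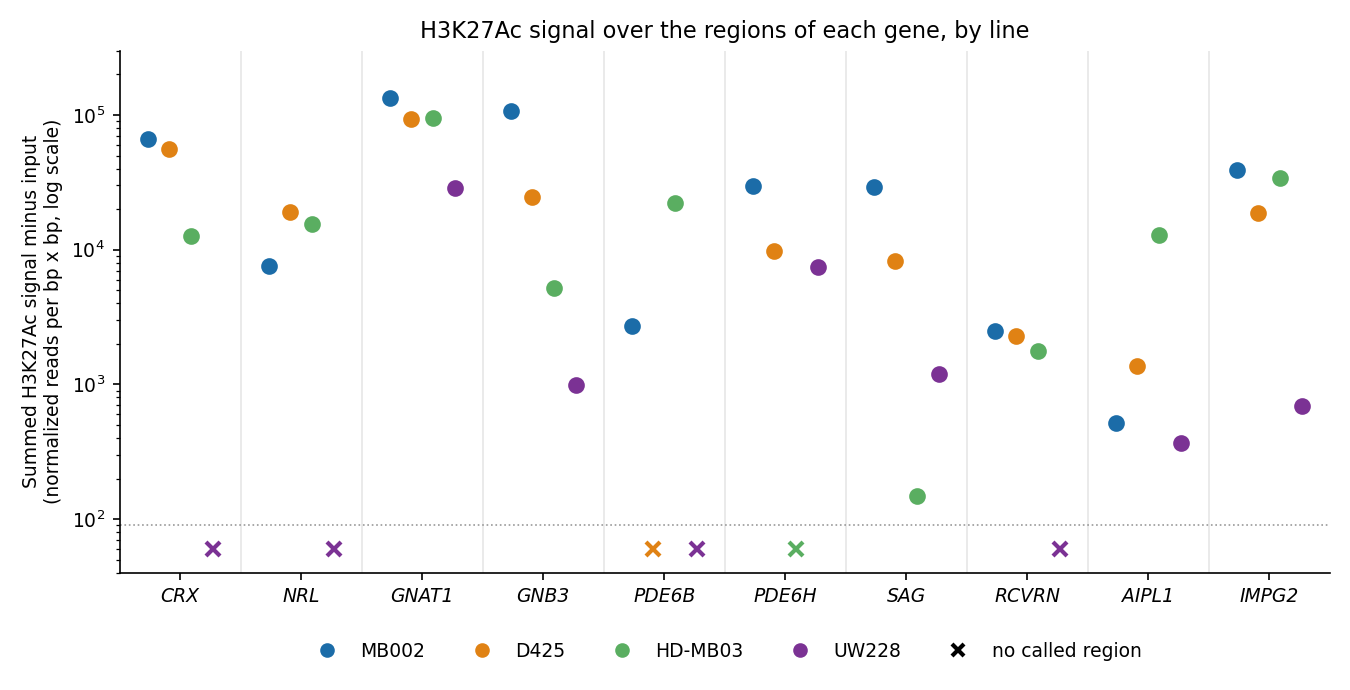
Summed H3K27Ac signal minus input over the regions of each of the 10 genes (normalized reads per bp times bp, log scale) in each line, with 1 point per line and crosses for lines with no called region. *GNAT1* is highest in every line, and the UW228 point or cross is lowest for 7 of the 10 genes.

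*PDE6B* (chromosome 4, 625573 to 670782, + strand) encodes the beta subunit of the rod phosphodiesterase. The summed signal was 2706 in MB002 and 22102 in HD-MB03, and D425 and UW228 had no called region. The best region ranked 9331 in MB002 and 443 in HD-MB03, with relative input densities of 1.60 and 0.947. The sum was thus higher in HD-MB03, over 27344 bp against 2465 bp, but the mean signal per bp was higher in MB002, at 1.1 against 0.808. That HD-MB03 TE ran from 37.6 to 59.5 kb downstream of the TSS, had a signal of 19440 and held the TSSs of *ATP5ME* and *MYL5*, while all 2465 bp of the MB002 regions fell inside the HD-MB03 ones.

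*PDE6H* (chromosome 12, 14973042 to 14981865, + strand) encodes the inhibitory gamma subunit of the cone phosphodiesterase. Its summed signal was 29930 in MB002, 9741 in D425 and 7433 in UW228, with no called region in HD-MB03. The mean signal was 0.527, 0.294 and 1.11 per bp over 56746, 33156 and 6687 bp. *PDE6H* therefore did not separate UW228 from the G3-MB lines, and its mean per bp was highest in UW228. Peaks made up 42.4% of its best region in MB002 and 32.5% in D425, against 89.8% in UW228.

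The best *PDE6H* region was a TE of rank 661 in MB002, 2139 in D425 and 3781 in UW228, with relative input densities of 0.942, 1.05 and 1.01. Only the MB002 region, 24.2 kb upstream to 5.11 kb downstream, held the TSS, together with that of *ARHGDIB*. The single UW228 region lay wholly within the D425 ones, and 72.1% of its length lay within those of MB002. The nearest TSS to the centre was that of *ARHGDIB* in MB002 and UW228 and of *ERP27* in D425, so *PDE6H* shares these regions with its neighbours.

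*SAG* (chromosome 2, 233307816 to 233347055, + strand) encodes rod arrestin, which binds activated rhodopsin and ends its signalling. MB002 had a summed signal of 29433 and D425 of 8246, against 148 in HD-MB03 and 1189 in UW228. The covered lengths were 39390, 27104, 320 and 1350 bp, at mean signals of 0.747, 0.304, 0.463 and 0.881 per bp. *SAG* was thus high in MB002 and D425 by sum, and HD-MB03 was below UW228, so the groups overlapped.

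The best *SAG* region ranked 1099 in MB002 and 2937 in D425, but 13465 in HD-MB03 and 12032 in UW228, all TEs, with relative input densities of 1.12, 1.08, 0.753 and 1.55. In MB002 it ran from 10.2 kb upstream to 5.58 kb downstream of the TSS and therefore covered the promoter printed above, which held matches to all 3 motifs. In D425 and UW228 the best region lay nearest to the TSS of *DGKD*, and in HD-MB03 to that of *ATG16L1*. A called region over the *SAG* start itself was found in MB002 only.

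*RCVRN* (chromosome 17, 9896320 to 9905271, - strand) encodes recoverin, a calcium sensor that restrains rhodopsin kinase. Its summed signal was 2497 in MB002 and 2277 in D425. HD-MB03 had 1777, and UW228 had no called region. The best region ranked 7729, 10495 and 5159, with relative input densities of 0.812, 0.736 and 0.968. *RCVRN* thus had the weakest signal of the 3 genes that were called in every G3-MB line and not in UW228, and its sum differed by 1.41 times among the G3-MB lines. Per bp the lines differed more, at 0.467, 0.390 and 0.148.

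The *RCVRN* regions overlapped between some pairs of lines but not across all 3. In MB002 and D425 the best one lay in the gene body, 3.01 to 8.04 and 3.32 to 7.80 kb downstream of the TSS, and the regions of the pair shared 4478 bp. In HD-MB03 the single region lay 23.6 to 11.6 kb upstream, over 12017 bp. The weaker D425 region, of 1364 bp, lay wholly within it. No base was common to all 3 lines.

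*AIPL1* (chromosome 17, 6393693 to 6435199, - strand) encodes a chaperone that photoreceptors need to fold their phosphodiesterase. Summed over its regions, signal reached 515 in MB002 and 1374 in D425, with 12955 in HD-MB03 and 368 in UW228. The best region ranked 16137, 9646, 910 and 17472, all TEs, with relative input densities of 0.0910, 0.888, 1.03 and 0. By summed signal *AIPL1* was thus highest in HD-MB03, where 37878 bp were covered against 785, 1728 and 630 bp. By mean signal per bp, at 0.656, 0.795, 0.342 and 0.584, HD-MB03 was the lowest of the lines, and its best rank fell to 11229 with a window of 25 kb.

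The HD-MB03 value of *AIPL1* came from a TE that lay 74.6 to 37.5 kb upstream, closest to the TSS of *PIMREG*. Within the gene body all 3 G3-MB lines had a small region, which overlapped over 247 bp, from 5.87 to 6.11 kb downstream of the TSS. UW228 had no region in the gene body of *AIPL1*.

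*IMPG2* (chromosome 3, 101222546 to 101320575, - strand) encodes a proteoglycan of the matrix around photoreceptor outer segments. MB002 had a summed signal of 39334 and D425 of 18699, against 33987 in HD-MB03 and 694 in UW228. The covered lengths were 80819, 65219, 22478 and 1077 bp, at mean signals of 0.487, 0.287, 1.51 and 0.644 per bp. All 3 G3-MB lines were far above UW228 by sum, but by mean per bp UW228 was above MB002 and D425. That mean counts the gaps between joined peaks. Peaks made up 33.3% of the best region in MB002 and 24.6% in D425, against 97.7% in HD-MB03 and 100% in UW228.

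The best *IMPG2* region held the TSS in every G3-MB line and ranked 402 in MB002 and 960 in D425 as a TE, and 186 in HD-MB03, where it was an SE. Its relative input density was 0.786, 0.958 and 1.03. It spanned 69554 bp with 18 peaks in MB002 and 61046 bp with 18 peaks in D425, reaching 66.0 and 58.1 kb upstream, but 13593 bp with 2 peaks in HD-MB03, reaching 9.57 kb upstream. The MB002 and D425 regions were therefore long, with 0.447 and 0.265 signal per bp over peaks and gaps together. The HD-MB03 SE was short and denser, with 2.14. With the SE cutoff recomputed, it was no SE without input subtraction, at rank 235, or by mean signal per bp, at rank 589. All *IMPG2* regions of the 3 lines shared 15988 bp. The best UW228 region ranked 16274, at a relative input density of 0.101.

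**Figure D4:**
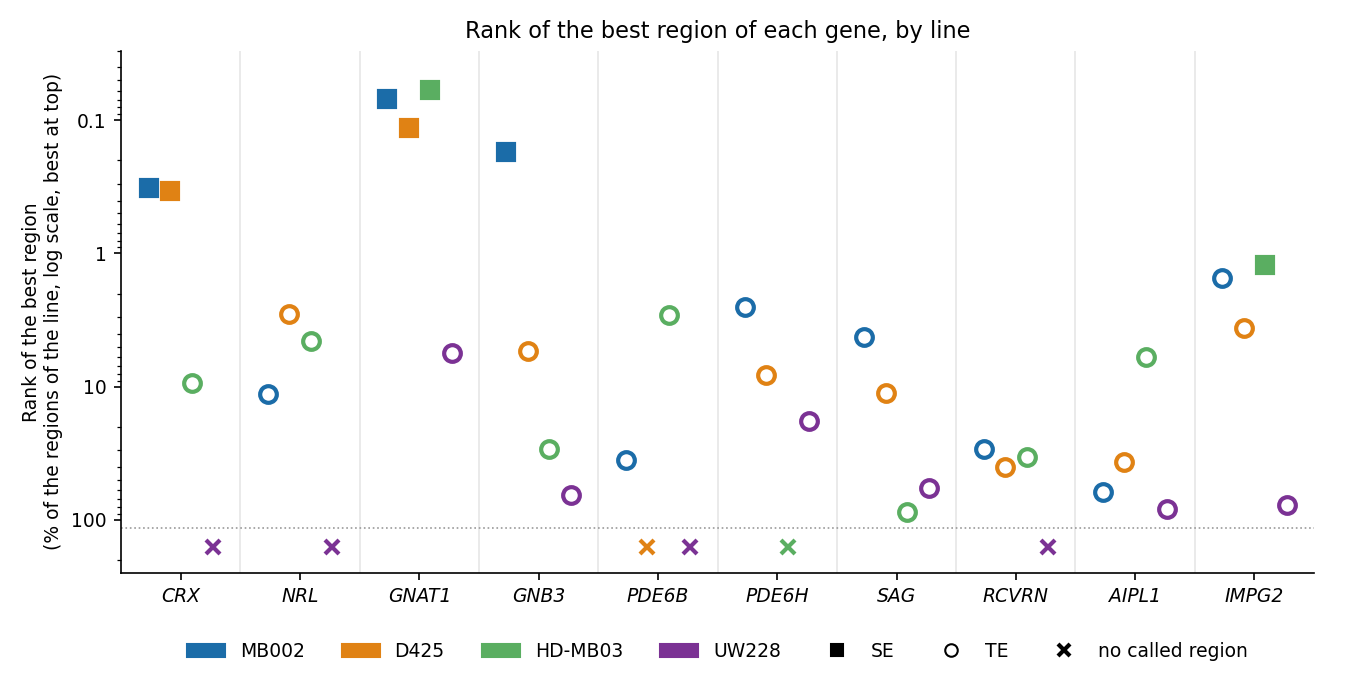
Rank of the best region of each of the 10 genes as a percent of the regions of the line (log scale, best at the top), with squares for SEs, open circles for TEs and crosses for lines with no called region. SEs appear at *CRX*, *GNAT1*, *GNB3* and *IMPG2* in G3-MB lines, and all UW228 points are TEs.

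Set side by side, the 10 genes had their best regions at a median of 3.38% of the ranks in MB002 and 5.42% in D425, against 5.95% in HD-MB03 and 61.5% in UW228, among genes with a region. For all protein-coding genes with a region the medians were 26.0%, 23.5%, 26.6% and 32.9%. The median of the photoreceptor genes was thus ahead in each G3-MB line and behind in UW228, which was not tested, and single genes departed from it. Behind the median of all genes were *PDE6B*, *RCVRN* and *AIPL1* in MB002, *RCVRN* and *AIPL1* in D425, and *GNB3*, *SAG* and *RCVRN* in HD-MB03, while *GNAT1* and *PDE6H* were ahead of it in UW228. The best UW228 rank at any of the 10 genes was 1162, at *GNAT1*.

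Comparing the subtypes asks which of these genes carried more H3K27Ac in the G3-MB lines than in the SHH line. Summed signal was higher in each G3-MB line than in UW228 for 7 of the 10 genes (*CRX*, *NRL*, *GNAT1*, *GNB3*, *RCVRN*, *AIPL1* and *IMPG2*), where a gene with no called region counted as lowest. The same held for 21.8% of protein-coding genes. With regions near any protein-coding TSS left out, 4 of the 10 remained higher (*NRL*, *RCVRN*, *AIPL1* and *IMPG2*). A region in every G3-MB line and none in UW228 was found for 3 of the 10 (*CRX*, *NRL* and *RCVRN*), against 11.2% of protein-coding genes. Both transcription factors were thus in the latter group, but *CRX* left it with a window of 100 kb or with regions near any protein-coding TSS left out, and *NRL* left it when regions went only to the closest TSS. *RCVRN* left it with a window of 100 kb and with gene body overlap alone. The exceptions to the first count, *PDE6B*, *PDE6H* and *SAG*, each fell to or below UW228 in 1 G3-MB line.

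For the 6 genes with a region in UW228, the median summed signal of the G3-MB lines was 49.0 times that of UW228 for *IMPG2*, 24.9 times for *GNB3*, 6.93 times for *SAG*, 3.73 times for *AIPL1*, 3.29 times for *GNAT1* and 1.31 times for *PDE6H*. On the log2 scale these ratios were 5.61, 4.64, 2.79, 1.9, 1.72 and 0.39. Leaving out 1 G3-MB line at a time moved the log2 ratio by over 1.5 times in fold for 4 of the genes, to between 3.92 and 6.06 for *GNB3*, 1.82 and 3.99 for *SAG*, 1.36 and 4.28 for *AIPL1*, and -0.61 and 1.42 for *PDE6H*. Other settings moved some ratios further. With a window of 100 kb the log2 ratio was 1.99 for *GNB3* and 0.19 for *AIPL1*, and after division by relative input density it was 2.94 for *IMPG2* and 6.54 for *AIPL1*. That *AIPL1* value rests in UW228 on the weaker region, with a signal of 81.8, because the stronger one had an input of 0. With regions near any protein-coding TSS left out it was 2.80 for *IMPG2*, 2.66 for *GNB3*, 0.43 for *SAG* and 6.70 for *GNAT1*. *GNAT1* was then not higher in each G3-MB line, as its best region had a signal of 81.9 in MB002 and of 94.4 in UW228. With the outermost gene start as TSS, a setting chosen after seeing the data, it was 7.32 for *GNB3*. Division by the median signal of each line raised all 6, to between 1.63 for *PDE6H* and 6.61 for *IMPG2*. The size of these folds therefore depended on the lines counted and on the settings. The median covered length in the G3-MB lines was 65219 bp for *IMPG2*, 27212 bp for *GNB3*, 27104 bp for *SAG*, 1728 bp for *AIPL1*, 59514 bp for *GNAT1* and 33156 bp for *PDE6H*. In UW228 it was 1077, 715, 1350, 630, 43200 and 6687 bp.

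The differences in sums therefore went with differences in length. Lengths and means per bp include the gaps between joined peaks, and signal within peaks alone was not computed. By mean signal per bp the log2 ratio was 1.23 for *GNAT1* and 0.17 for *AIPL1*, but -0.40 for *IMPG2*, -0.66 for *GNB3*, -0.93 for *SAG* and -1.44 for *PDE6H*. For *PDE6H* the median per bp was taken over the 2 G3-MB lines with a region, whereas the median sum and length counted HD-MB03 as lowest. Only 4 of the 10 genes (*CRX*, *NRL*, *GNAT1* and *RCVRN*) were higher per bp in each G3-MB line than in UW228, and for 3 of these UW228 had no region to compare. The share over all protein-coding genes was not computed per bp, so this count has no background. At the genes called in UW228, the median covered length was thus greater in the G3-MB lines, and signal per bp was higher in each of them at *GNAT1* alone. The direction of 2 sums was not stable. For *GNAT1* the log2 ratio turned negative in the 2 settings given above, and for *PDE6H* it was, beside the negative value without MB002, -2.94 with regions near any protein-coding TSS left out. With regions given only to the closest TSS it was 2.55 for *PDE6H*, which was then higher in each G3-MB line.

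**Figure D5:**
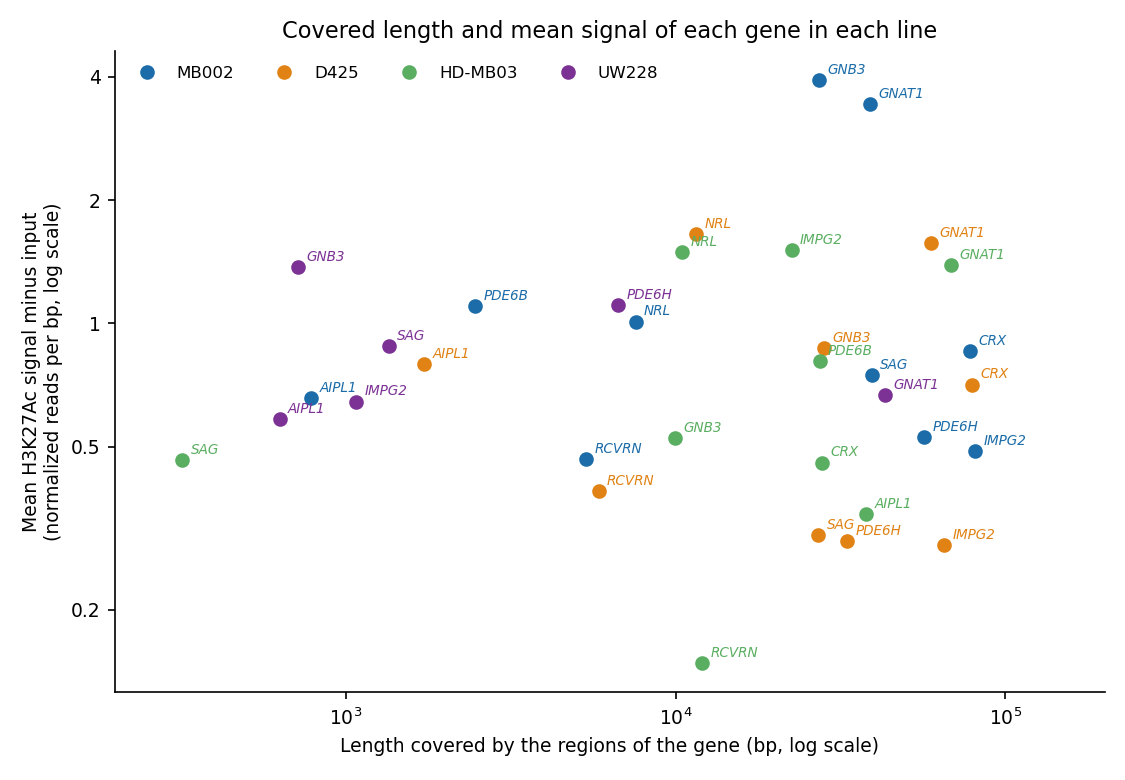
Length covered by the regions of each gene (bp, log scale) against their mean H3K27Ac signal minus input (normalized reads per bp, log scale), with 1 labelled point per gene and line. UW228 points for *GNB3*, *SAG*, *AIPL1* and *IMPG2* lie at the short end, and MB002 points for *GNB3* and *GNAT1* are the densest.

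Within the G3-MB lines the genes did not follow 1 order. By summed signal MB002 was the highest line for *CRX*, *GNAT1*, *GNB3*, *PDE6H*, *SAG*, *RCVRN* and *IMPG2*, D425 for *NRL*, and HD-MB03 for *PDE6B* and *AIPL1*. This order depended on scaling. As a percent of the total signal of the line, HD-MB03 was also highest for *GNAT1* (0.195, against 0.141 in MB002), *IMPG2*, *RCVRN* and *NRL*. *CRX* was then at 0.0704 in MB002 and 0.0702 in D425. Divided by the median signal of the line, D425 was highest for *CRX* (78.1) and *RCVRN* (3.18). Among G3-MB lines with a region, the highest sum was 199 times the lowest for *SAG*, 25.2 times for *AIPL1*, 20.4 times for *GNB3*, 8.17 times for *PDE6B*, 5.28 times for *CRX*, 3.07 times for *PDE6H*, 2.5 times for *NRL*, 2.10 times for *IMPG2*, 1.43 times for *GNAT1* and 1.41 times for *RCVRN*. The spread among G3-MB lines was thus larger than their ratio to UW228 for *PDE6H*, *SAG* and *AIPL1*.

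Most regions were shared with other genes. Over the 4 lines, the photoreceptor gene had the closest TSS to the centre of 14 of its 34 best regions, that is 6 of 10 in MB002 and 4 of 9 in D425, but 3 of 9 in HD-MB03 and 1 of 6 in UW228. A best region lay within reach of a median of 3 protein-coding genes, and of 10 at most. *CRX*, *RCVRN* and *IMPG2* were the closest gene in every line where they had a region, *GNAT1*, *NRL*, *PDE6B* and *PDE6H* in none.

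The genes whose signal over the 4 lines was most like that of *CRX*, by distance in log2 summed signal among 19900 genes that share no region with the 10, were *TOGARAM2* (distance 0.37), *RAPGEF5* (0.80), *SYN3* (0.85), *BAZ2A* (0.87) and *NPTX1* (0.99). For *NRL* they were *DNAAF5* (0.20), *FUT5* (0.40), *TBCD* (0.41), *PNPLA5* (0.43) and *CTDSP1* (0.49). None of the 10 named had a region in UW228. With 4 lines, such likeness is a description only.

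Other genes of the phototransduction cascade and the outer segment, 40 in all, had a region in 35 cases in MB002 and 31 in D425, against 25 in HD-MB03 and 22 in UW228. The shares with a region, 87.5%, 77.5%, 62.5% and 55%, were near the 70.7%, 72.8%, 58.1% and 61.7% of all protein-coding genes in all lines but MB002. An SE was found in 5, 4, 0 and 0 cases of 40, against shares of 3.33%, 4.32%, 3.09% and 4.95% of protein-coding genes. Summed signal was higher in each G3-MB line than in UW228 for 15 of them (37.5%, against 21.8% of protein-coding genes), and 7 (17.5%, against 11.2%: *PDE6C*, *GRK7*, *GUCY2D*, *RGS9BP*, *UNC119*, *RBP3* and *CABP4*) had a region in every G3-MB line and none in UW228. By best rank in any line, the leading genes were *PRPH2*, an outer segment rim protein, and the guanylate cyclase activators *GUCA1A* and *GUCA1B*. *PRPH2* ranked 135, 1042, 538 and 13760 in MB002, D425, HD-MB03 and UW228. *GUCA1A* and *GUCA1B* lie side by side and shared an SE of rank 162 in MB002 and 120 in D425. In HD-MB03 and UW228 the best rank was 7490 and 16092 for *GUCA1A* and 1747 and 2424 for *GUCA1B*. *TULP1* (rank 362) led in HD-MB03 and *ABCA4* (997) in UW228. HD-MB03, which had SEs at *GNAT1* and *IMPG2*, had none at the wider cascade, which for 40 genes is close to its share of 3.09%.

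Of 11 further photoreceptor transcription factors and cofactors, 10 had a region in MB002 and 10 in D425, against 8 in HD-MB03 and 4 in UW228, and an SE lay at 3, 1, 3 and 1. These are shares of 90.9%, 90.9%, 72.7% and 36.4% with a region and of 27.3%, 9.09%, 27.3% and 9.09% with an SE, to be read against the same background shares. Summed signal was higher in each G3-MB line than in UW228 for 5 (45.5%, against 21.8%), and *OTX2*, *NEUROD1*, *RORB* and *SAMD11* (36.4%, against 11.2%) had a region in every G3-MB line and none in UW228. *OTX2*, which acts upstream of *CRX* in the retina, ranked 3, 3 and 5, but on relative input densities of 35.2, 53.3 and 5.84, far above those at *CRX*. *NEUROD1* ranked 253, 502 and 48 on relative input densities of 1.14, 1.53 and 1.15. *MEF2D* ranked 110, 467, 21 and 719, with an SE in UW228 too. The pattern of *CRX* and *NRL*, called in every G3-MB line and not in UW228, was thus shared by 4 of the 11.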

How the data were processed

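H3K27Ac and input were measured once each in MB002, D425, HD-MB03 and UW228. Per the processing notes of the authors, reads were aligned to GRCh38 with Bowtie2 2.3.0, handled with SAMtools 1.9, and peaks were called over input with MACS2 2.2.6. The deposited signal values, 1 column for H3K27Ac and 1 for input, are read densities per bp normalized to mapped reads times region length, by ROSE, with no input subtracted. The deposited score is the rank of each region within its line, and it followed H3K27Ac minus input in all 4 lines. Other deposited columns give the SE call of the authors, the number of joined peaks and their length. Read depth is unknown.

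Genes came from GENCODE 44, with the start of the canonical transcript as TSS. Python 3.11.15, numpy 2.4.6, pandas 2.3.3 and matplotlib 3.10.9 were used, and the region-to-gene code was tested on simulated data. The sum, covered length, mean per bp, best rank and relative input density were computed per gene and line, and a log2 pseudocount of 1 was used for likeness only. Counts over the 10 genes stand beside the same counts over all protein-coding genes. Motifs were counted on both strands of the 250 bases before the start.

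The 10 genes and all lists were chosen with earlier results of these data known. Named genes were the 10 genes, those with a TSS inside or closest to the centre of a best region, up to 3 genes with the best ranks of each list, and the 5 most alike to *CRX* and to *NRL*. Genes named in counts of 7 or fewer, as leading or lacking a region in a list, and the transcript NRL-203 with its neighbours, were chosen after their values were seen. The lists were other phototransduction and outer segment genes, photoreceptor transcription factors and cofactors, and markers of G3-MB, SHH, WNT and Group 4 tumours, pineal, bipolar, Mueller glia, pigment epithelium, ganglion and mesenchymal cells. *IMPG2* and *NRL*, which also mark G3-MB, were left out of its marker list.

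Alternatives were signal without input subtraction, divided by relative input density, per bp, or divided by the median or total of the line; windows of 25 and 100 kb, or none; regions given only to the closest TSS; regions within 2.5 kb of a TSS left out; other TSS definitions; other SE cutoffs; the strongest region in place of the sum; best rank as a percent; all annotated genes as background; and each G3-MB line left out.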

Additional observations from a re-analysis of the deposited data

How the results depend on the processing

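No paired analysis was possible because each line had 1 library of each kind, and no result came from a test. Depth was unknown, so absence of a region was not told apart from signal under the calling limit. Regions were called separately in each line, so sums follow called length. Other TSS definitions and the division by the total signal of a line were chosen after seeing the data.

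Of the counts over the 10 genes, 83 values kept within 1.5 times of the reported one and 22 moved. Genes with a region in UW228 were 1 with gene body overlap alone and 2 with the closest TSS only. Genes with an SE were, after division by relative input density, 5 in MB002 and 1 in UW228. Per bp D425 had 1, HD-MB03 0 and UW228 1. They were 1 in D425 with a 25 kb window, 1 in both D425 and HD-MB03 with the gene body alone and also with the closest TSS only, and 1 in HD-MB03 without input subtraction. With regions near any TSS left out they were 0 in MB002, as in HD-MB03, and 1 in D425, and TSSs inside a region were 0 in these lines by construction. With any protein-coding transcript start as TSS, 3 genes had one inside a region in HD-MB03. Genes higher in each G3-MB line than in UW228 were 4 per bp and 4 with regions near any TSS left out. Leaving out MB002, D425 or HD-MB03 gave 7, 8 and 9. Shares over all protein-coding genes were not computed under these alternatives, so the counts have no background of their own.

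Of the values for single genes, 245 were kept, 104 moved and 8 reversed, and all 14 background shares were kept with all annotated genes. The log2 ratio of G3-MB to UW228 became -0.20 for *GNAT1* after division by relative input density and -0.75 with a 25 kb window. Per bp it became -0.66 for *GNB3*, -1.44 for *PDE6H*, -0.93 for *SAG* and -0.40 for *IMPG2*. For *PDE6H* it became -2.94 with regions near any TSS left out and -0.61 without MB002. No region was left, and so no value, for 10 of 34 best ranks with the gene body alone, 9 with the closest TSS only, 2 with a 25 kb window and 2 with regions near any TSS left out. Of the 34, 26 moved per bp, 16 to a worse and 10 to a better rank. Except where stated, the cause was not tested.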

Other observations

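Markers of the medulloblastoma subtypes were read in the same way, with lines in the order MB002, D425, HD-MB03 and UW228. Over all protein-coding genes, 70.7%, 72.8%, 58.1% and 61.7% had a region and 3.33%, 4.32%, 3.09% and 4.95% an SE. Of 6 G3-MB markers, 5, 4, 3 and 4 had a region and 3, 2, 1 and 0 an SE, with summed signals of 1506604, 495520, 257890 and 62264, led by *OTX2* in the G3-MB lines and by *NPR3* in UW228. *MYC* ranked 14, 7, 3111 and 763 on relative input densities of 23.8, 62.7, 153 and 0.997, and *MAB21L2* ranked 173, 1822 and 16512 in MB002, D425 and UW228. Of 8 SHH markers, 6, 4, 5 and 7 had a region and 0, 0, 3 and 0 an SE, with summed signals of 62451, 43547, 145536 and 84684, led by *GLI2*, *GLI1*, *PTCH1* and *EYA1*. The SHH sum was thus highest in HD-MB03 and next in UW228, and single markers differed in direction. *PTCH1* ranked 61 in HD-MB03 and 13373 in UW228, *GLI1* 203 and 11206, and *PDLIM3* 170 and 2411. *EYA1* ranked 1428 in UW228, ahead of 4609 in MB002 and 14774 in D425, with no region in HD-MB03, and *SFRP1* had a region in UW228 alone. Of 7 WNT markers, 5, 2, 2 and 3 had a region and 0, 0, 0 and 1 an SE, with summed signals of 27343, 1840, 8359 and 52582, and *TNC* ranked 541 in MB002 and 702 in UW228, where it was an SE. Of 5 Group 4 markers, 5, 4, 2 and 3 had a region and none an SE, with summed signals of 25627, 6871, 4093 and 10972.

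Markers of other cell types, several of them from the eye or the pineal gland, gave values in each line too. Of 3 pineal markers, 2, 2, 2 and 1 had a region, with summed signals of 23905, 9562, 27057 and 12640, and *AANAT* had the best rank, 354 in HD-MB03, while *ASMT* had none. Of 5 bipolar cell markers, 4, 3, 2 and 2 had a region, with summed signals of 7329, 55692, 2360 and 16879, led in every line by *TRPM1*, an SE of rank 378 in D425. Of 3 Mueller glia markers, 2, 1, 1 and 1 had a region, with summed signals of 1999, 9480, 728 and 28722. Of 4 pigment epithelium markers, 1, 2, 1 and 2 had a region, with summed signals of 124, 22764, 2515 and 23257, and *RPE65* and *TYR* had none. Of 3 ganglion cell markers, 2, 2, 1 and 0 had a region, with summed signals of 26841, 6673, 13458 and 0. Mesenchymal markers, 5 in all, had a region in 5, 5, 3 and 5 cases and an SE in 0, 1, 0 and 2, with summed signals of 57776, 47402, 45577 and 184773. Of these *COL1A2* ranked 75 in UW228. Their part in the photoreceptor values was not tested.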
